A study of Gallus gallus with 6 samples.

Results

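The cytosolic ribosomal protein genes of the feather papilla ectoderm were followed gene by gene through the feather cycle. The members were all rows of the TPM table whose symbol begins with RPL or RPS followed by a digit, with RPLP for the stalk proteins and RPSA, and without the RPS6 kinases, RPS19BP1 and RPL7L1. This gave 73 of 23724 genes, and the rule uses symbols only, although it was set with earlier results of these data known. Papilla ectoderm, the epidermal sheet around the dermal papilla that holds the progenitors of the feather, was dissected from contour feather follicles of White leghorn chicken without treatment. Early growth follicles had regenerated for 3 weeks, late growth follicles for 7 weeks and resting follicles for 10 weeks. Each phase has 2 bulk RNA-seq libraries, 6 in all, which carry the same batch label. The birds were male and between 6 months and 1 year old. Nothing in the sources used here tells whether separate birds were used for the libraries of 1 phase, so the p values measure only the spread between these libraries.

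The cytosolic ribosome has a small subunit (RPS proteins), which reads the mRNA, and a large subunit (RPL proteins), which joins the amino acids. Each ribosome carries about equal numbers of its different core proteins, all made in the cytoplasm and joined to ribosomal RNA in the nucleolus with the help of assembly factors. In vertebrates the mRNAs of ribosomal proteins begin with a pyrimidine tract (TOP mRNAs) through which mTORC1 and LARP1 control their translation. Mutations in several of these genes cause anaemia or defects of skin, hair or skeleton in human or mouse, although the proteins are used in every cell.

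The table covers most of the ribosome. Of 80 proteins in a list of the mammalian cytosolic ribosome, 33 of the small and 47 of the large subunit, 72 symbols stand in the table and 69 are members. The other 4 members are RPL3L, RPL22L1, RPL26L1 and RPS27L, which are named as forms of another ribosomal protein. RPS9, RPS18, RPL10, RPL13A, RPL18, RPL26, RPL28 and RPL41 have no row of that name and were not analysed here. RPL26L1 stood at a mean of 3928 TPM over the 6 libraries, among the levels of the ordinary members, and the chicken table of RefSeq gives RPL26 as a synonym of it. RPL3L, a form of RPL3 made in striated muscle of mammals, is listed at 0 TPM in all 6 libraries and was not tested. The other 72 members, 30 of the small and 42 of the large subunit, passed the filter of a mean above 1 TPM, and 69 of them had a mean above 1000 TPM.

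Ribosomal protein transcripts took a large part of all TPM, with the largest share in the late growth phase. TPM are shares of the transcripts of a library, corrected for gene length, so a gene's value also depends on what the other genes take. The members took 22.8 and 24.5% of TPM in the early growth libraries, 30.7 and 29.4% in those of late growth and 23.4 and 22.9% in those of the resting phase. The late growth libraries were above both other phases, while both resting values lay within the range of early growth. With 2 libraries against 2 the smallest two-sided p of an exact permutation test is 0.333, so these shares were not tested. Between 63 and 67 of the 100 genes of highest TPM in a library were members. The ratio of summed TPM of large to small subunit members lay between 1.24 and 1.28 in the 6 libraries, so both subunits had the same course.

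Transcripts of other cells differed between the phases in these bulk libraries, in which fewer cells of a type and less RNA per cell cannot be told apart. The 22 smooth muscle markers, all in the table, took 6.26 and 6.44% of the TPM of resting libraries, against 0.486 and 0.395% for early growth and 0.143 and 0.155% for late growth. The 15 erythroid markers in the table took 0.126 to 0.163% in the growth libraries and 5.58 and 5.61% in the resting libraries. Of these HBZ, HBE1 and HEMGN are listed at 0 TPM in every growth library. At an adjusted p under 0.05 (limma) 10 of the 15 were higher and 3 lower in resting than in late growth. Of all tested genes 24.7% were higher and 23.1% lower at that step. Fibroblast and dermal papilla markers took 0.351 and 0.355% for early growth, 0.0527 and 0.0553% for late growth and 0.472 and 0.483% for resting. Endothelial and leukocyte markers took at most 0.140% in any library. From early to late growth 19 of 21 tested smooth muscle and 23 of 26 fibroblast markers were called lower and 0 higher. All 16 tested endothelial and 9 of 16 leukocyte markers were lower too, and 0 higher. Of the 15 erythroid markers 3 were lower and 1 higher, and of all tested genes 28.4% were lower and 5.24% higher. The 19 keratinocyte markers in the table, which check the labelled epidermal cells, took 1.51 to 1.66% in the growth libraries and 1.26 and 1.28% in resting. Gene by gene, 2 of the 19 were called higher and 14 lower from late growth to resting. Their median log2 fold change at that step was −0.57, against 0.02 over all tested genes. The erythroid and smooth muscle genes were also taken out of the total, and here and below all symbols beginning with HB went with them. The members' share of the resting libraries then becomes 26.5 and 26.0%. This lies above the 22.9 and 24.6% of early growth and below the 30.8 and 29.5% of late growth. The part of the other cells' own ribosomal transcripts in these values was not tested.

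**Figure D1:**
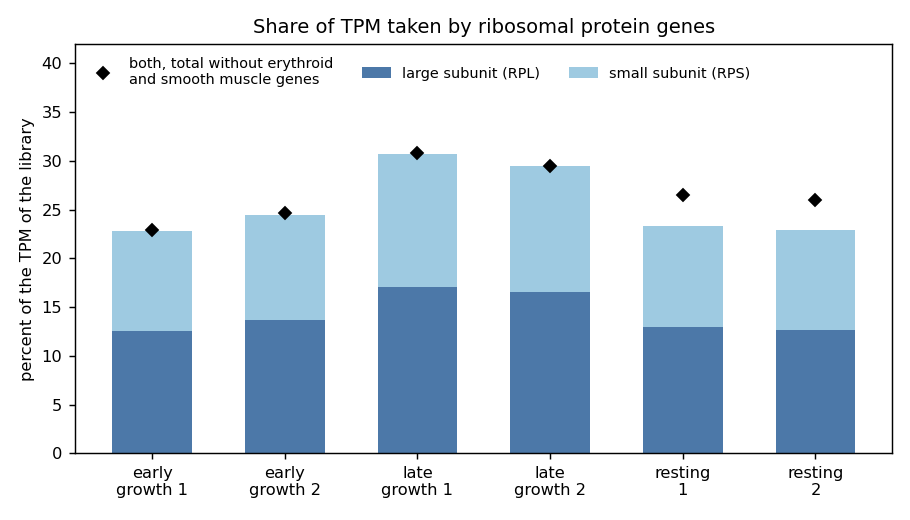
Stacked bars give the percent of a library's TPM taken by large subunit (RPL) and small subunit (RPS) members in each of the 6 libraries, and diamonds give both together when erythroid and smooth muscle genes are left out of the total. The bars reach 30.7 and 29.4% in late growth and 22.8 to 24.5% in the other libraries, and in the resting libraries the diamonds stand at 26.5 and 26.0%.

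Most members stood at a like level within a library, while RPS27L, RPL22L1 and, in some libraries, RPL14 stood far below the others. RPS6, the target of the S6 kinases and a protein of the small subunit, was the highest member in every library, at 7572 and 7797 TPM in early growth, 9527 and 9051 TPM in late growth and 6779 and 7022 TPM in resting. Among the 68 members with a mean above 1000 TPM other than RPL14, the lowest was RPL29 in early growth (876 and 935 TPM) and RPS14 in the other phases (1283 and 1214, then 1025 and 1026 TPM). The ratio of highest to lowest of these 68 members was 6.62 to 8.64 in the 6 libraries. The next highest means belonged to RPS12 (6987 TPM), RPS23 (5655 TPM), a protein of the decoding centre, RPS3A (5497 TPM) and RPL17 (5488 TPM), which lines the exit tunnel for the new peptide. Over the 68 members, which are not independent replicates, Pearson's r of log2 TPM was 0.983, 0.990 and 0.994 within the early growth, late growth and resting pairs. It was 0.887 to 0.932 between early and late growth, 0.901 to 0.915 between late growth and resting and 0.835 to 0.846 between early growth and resting. The libraries of a phase differed by a median of 0.0892, 0.0783 and 0.0445 on the log2 scale over the members, against 0.286, 0.156 and 0.166 over all tested genes.

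Between early and late growth most ribosomal protein transcripts rose by a small factor, while more of the other genes were called lower than higher. Of 72 tested members 51 were higher and 1 lower at an adjusted p under 0.05 (limma, Benjamini-Hochberg over all 13063 tested genes), where 5.24% of all tested genes were called higher and 28.4% lower. The members' median log2 fold change was 0.34, a factor of 1.27, against −0.31 over all tested genes. In the small subunit 19 of 30 rose and in the large subunit 32 of 42. The libraries of the phases did not overlap, with late growth higher, in 57 members, which was the case in 14.9% of all tested genes. This direction depends on the scale. With median-of-ratios scaling the members' median was 0.67 and that of all tested genes −0.01. There 60 members were higher and 0 lower, against 1675 and 1994 of all 13063 tested genes. Quantile normalization gives every library the same distribution of values. In the growth libraries 65 to 67 of the 100 highest genes were members, so it largely removes a shift shared by them, by construction. With quantile normalization the members' median was −0.02 and that of all tested genes 0.04. It called 15 members higher and 12 lower, against 1611 and 1775 of all tested genes. Of the 35 members named by rule, quantile normalization ended the call of 8 and turned the sign of 9 at this step. Without the filter on low values only 9 of 73 members were higher and 0 lower, with a median of 0.34. Leaving out each library in turn gave 37 to 52 higher.

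The largest rises from early to late growth were those of RPS15A, RPL29, RPS12 and RPL22L1. RPS15A, a small subunit protein, was at 3297 and 3234 TPM in early growth and 5865 and 5785 TPM in late growth, a change of 0.83 on the log2 scale (standard error 0.05, adjusted p = 2.8e-04), with both late growth libraries far above both early ones. RPL29, which was at 876 and 935 TPM in early growth, reached 1592 and 1589 TPM, a change of 0.81 on the log2 scale (standard error 0.06, adjusted p = 4.3e-04). RPS12 went from 5429 and 5381 TPM to 9157 and 8897 TPM, a change of 0.74 on the log2 scale (standard error 0.04, adjusted p = 2.2e-04), and became the member with the next highest level after RPS6. These rises kept their direction under quantile normalization, where that of RPS12 was not called (0.33, adjusted p = 0.081). No member passed a log2 fold change of 1 together with the adjusted p, which 1.98% of all tested genes did upward. The member that fell was RPS27L, described with its paralog.

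On entry into rest the ribosomal protein transcripts fell back. Of 72 tested members 57 fell and 0 rose from the late growth to the resting phase, where 23.1% of all tested genes were called lower and 24.7% higher. At an unadjusted p under 0.05 limma gave 59 lower and 0 higher as well. The median log2 fold change was −0.41, a factor of 1.33 downward, against 0.02 over all tested genes. In the small subunit 21 of 30 fell, with a median of −0.31, and in the large subunit 36 of 42, with a median of −0.43. The libraries did not overlap, with resting lower, in 64 members and in 38.7% of all tested genes. The erythroid and smooth muscle genes, with all symbols beginning with HB, held 11.9 and 12.1% of TPM in the resting libraries. With TPM rescaled after their removal the median was −0.22 and that of all tested genes 0.19. On this scale 3 members were called higher and only 39 lower, against 3871 and 2340 of 13024 tested genes. Of the 35 named members 8 lost their call on this scale and 2 turned in sign. Quantile normalization gave a median of −0.34, with 3 members higher and 55 lower, against 2921 and 3579 of 13063 tested genes. Median-of-ratios scaling gave −0.40, with 0 members higher and 42 lower, against 3352 and 3043 of all tested genes. Without the filter on low values 0 of 73 members were higher and only 20 lower, with a median of −0.41. Leaving out each library in turn gave 44 to 58 lower.

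Among the largest falls into rest were those of RPL22L1, RPS27A and RPS2. RPS27A encodes a small subunit protein fused to ubiquitin, which is cleaved off after translation. It was at 4034 and 3695 TPM in late growth and 2010 and 1905 TPM in the resting phase, a change of −0.98 on the log2 scale (standard error 0.07, adjusted p = 1.1e-04), with both resting libraries also below the 2904 and 3134 TPM of early growth. RPS2, which lies near the entry of the mRNA channel, was at 3517 and 3599 TPM in early growth, 4613 and 4374 TPM in late growth and 2503 and 2469 TPM in resting. Its log2 fold changes were 0.34 (standard error 0.04, adjusted p = 0.0036) and then −0.85 (standard error 0.04, adjusted p = 4.7e-05), and the first became −0.025 with quantile normalization. Except for RPL22L1 no member passed a log2 fold change of 1 downward together with the adjusted p, which 11.1% of all tested genes did.

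**Figure D2:**
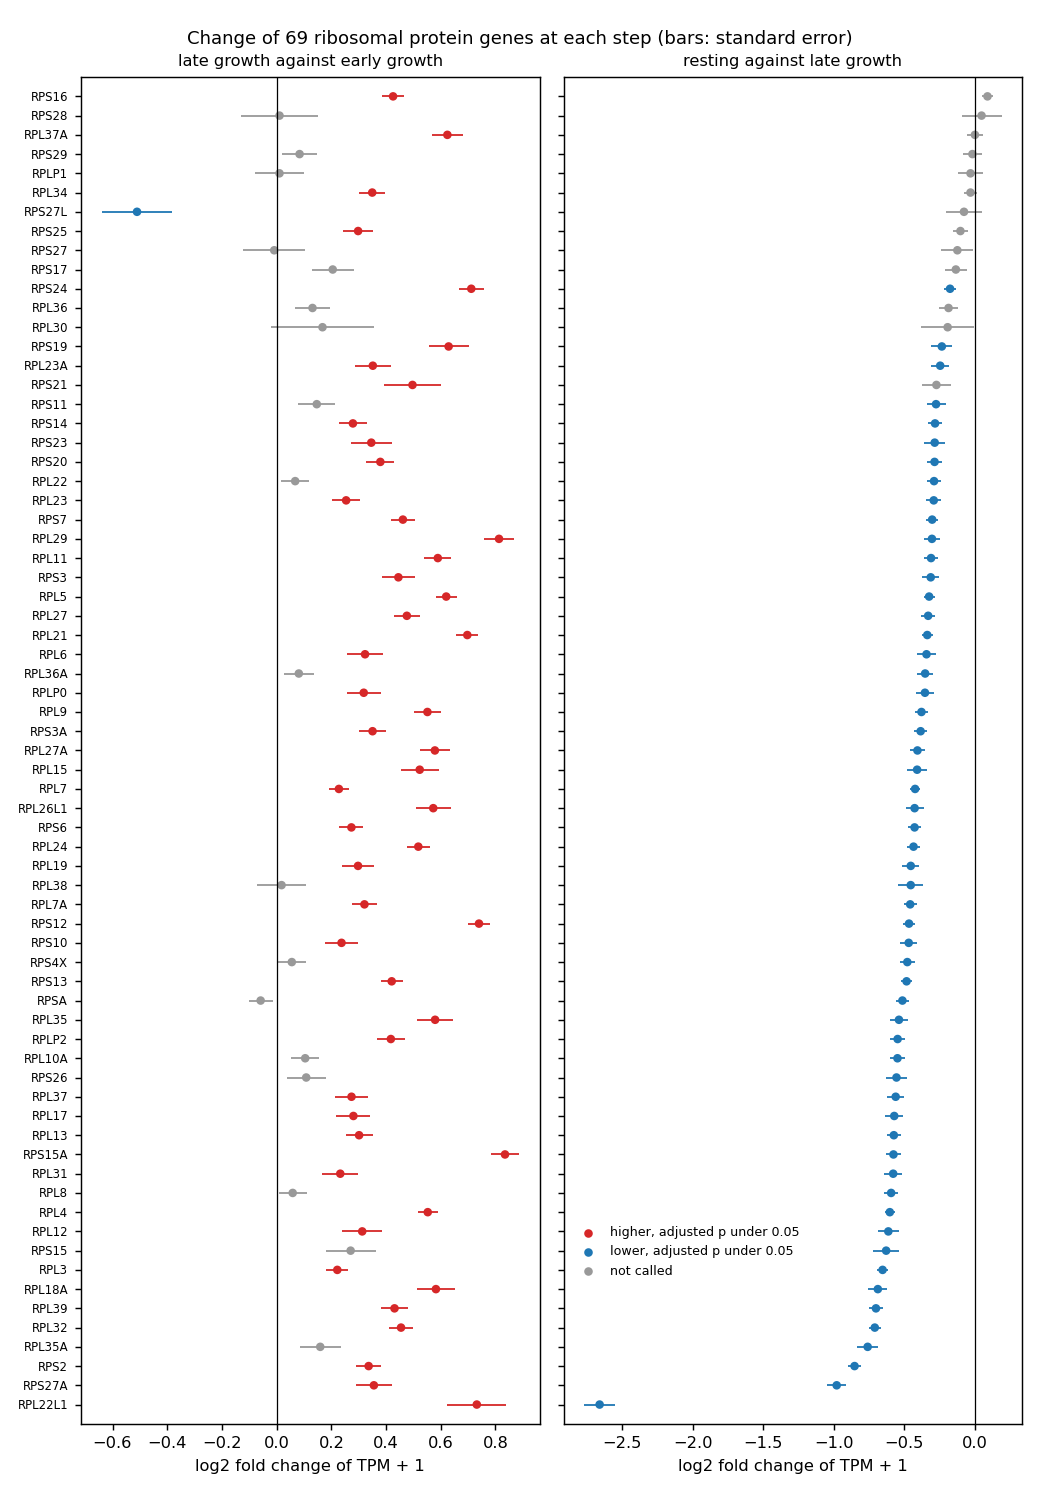
Points give the log2 fold change of TPM + 1 for 69 members at the step from early to late growth (left) and from late growth to resting (right), with bars of 1 standard error, sorted by the step into rest, with RPL14 among the members left out. Red points were called higher and blue points lower at an adjusted p under 0.05: 50 and 1 on the left, where the median becomes −0.02 with quantile normalization, and 0 and 56 on the right.

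Between early growth and resting, members were called in both directions. Of 72 tested members 16 were higher and 27 lower in resting than in early growth, where 15.8% of all tested genes were called higher and 34% lower. The median log2 fold change was −0.04, against −0.27 over all tested genes. These counts depend on single libraries and on the scale. Without resting replicate 1 they were 9 and 15, without resting replicate 2 they were 9 and 13, and with the erythroid and smooth muscle genes removed from the total they were 31 and 12, with a median of 0.14. Of the 13024 genes tested with that removal 2527 were higher and 3588 lower. Median-of-ratios scaling gave 26 members higher and 1 lower, with a median of 0.29, against 3175 and 2936 of 13063 tested genes. Quantile normalization gave 6 and 43 members, with a median of −0.29, against 3026 and 3395 of all tested genes. Without the filter on low values 2 of 73 members were higher and 6 lower, with a median of −0.04. Over the 3 phases the late growth mean was the highest in 66 of 72 members and in 19% of all tested genes. The lowest mean was that of early growth in 30 members and that of resting in 42, and late growth was lowest in 0 members and in 41.8% of all tested genes.

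Because the share of the whole family moves with the scale, each library was also scaled to the same summed TPM over the members. On this scale the typical member stays near 0 by construction, and a value says how a member moved against the rest of the ribosome. From early to late growth 19 members were higher and 16 lower on this scale (2.21% and 46.2% of all tested genes), from late growth to resting 14 higher and 21 lower (34.4% and 12.2%), and from early growth to resting 22 higher and 25 lower (15.4% and 30.9%). Leaving out late growth replicate 1 gave 12 higher at the first step and 11 lower at the step into rest. Leaving out late growth replicate 2 gave 10 lower at the first step, and 8 higher and 11 lower at the step into rest. Without resting replicate 1 the step into rest had 6 higher and 9 lower, and without resting replicate 2 it had 8 and 10. From early growth to resting the higher count became 10 without resting replicate 1 and 14 without resting replicate 2. Over 70 tested members, RPL14 not among them, the values ranged from −0.86 to 0.48 at the first step, from −2.27 to 0.48 at the step into rest and from −1.89 to 0.66 between early growth and resting, on the log2 scale.

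Members that stood higher against the rest of the family in resting than in early growth include RPL37A, RPS16, RPS24 and RPL29. RPL37A, a zinc-binding protein of the large subunit, was at 3387 and 3698 TPM in early growth, 5553 and 5359 TPM in late growth and 5339 and 5566 TPM in resting. It rose at the first step by 0.62 on the log2 scale of TPM (standard error 0.06, adjusted p = 0.0010) and then changed by 0.00 (standard error 0.06, adjusted p = 0.99), so that against the family it was 0.66 higher in resting than in early growth (standard error 0.04, adjusted p = 1.1e-04). RPS16, whose tail reaches the tRNA in the decoding centre, was at 2887 and 2912, 3922 and 3867, and 4195 and 4084 TPM, the only one of these members whose resting libraries were both above those of late growth. Its log2 fold change in TPM was 0.43 (adjusted p = 0.0011) at the first step and 0.09 (adjusted p = 0.12) at the next, and relative to the family it rose by 0.48 into rest (standard error 0.05, adjusted p = 3.6e-04). RPS24, one of the genes mutated in human Diamond-Blackfan anaemia, was at 2954 and 3133, 5023 and 4943, and 4453 and 4360 TPM, and relative to the family rose by 0.36 and then by 0.21 (adjusted p = 9.0e-04 and 0.0042). RPL29 was 0.55 higher against the family in resting than in early growth (adjusted p = 3.8e-04), with 1324 and 1251 TPM in the resting libraries. It gained on the family at the first step (0.46, adjusted p = 0.0011) and was not called into rest (0.09, adjusted p = 0.21).

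RPSA fell against the family. RPSA is a protein of the small subunit that is also known as a laminin receptor of the cell surface. It was at 5850 and 6106 TPM in early growth, 5864 and 5617 TPM in late growth and 3990 and 4045 TPM in resting. The growth phases overlapped, with −0.06 on the log2 scale of TPM (standard error 0.04, adjusted p = 0.35), and both resting libraries lay below all others, with −0.51 (standard error 0.04, adjusted p = 2.7e-04). Against the family it fell by 0.41 from early to late growth (standard error 0.04, adjusted p = 6.5e-04) and was 0.53 lower in resting than in early growth (adjusted p = 1.5e-04). Its relative change into rest, −0.12 (adjusted p = 0.037), was not called without any 1 of the late growth, the resting or the second early growth libraries (adjusted p between 0.053 and 0.20). RPL35A, another anaemia gene in human, was at 2234 and 2374, 2717 and 2435, and 1588 and 1451 TPM. It was lower in resting than in early growth by 0.60 in TPM (standard error 0.08, adjusted p = 0.0013) and by 0.56 against the family (adjusted p = 5.3e-04). With median-of-ratios scaling the former was −0.26 and was not called (adjusted p = 0.14).

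RPLP1, RPS27, RPS28 and RPS29 were not called in TPM at either consecutive step, and against the family their values were negative and then positive. RPLP1, one of the acidic stalk proteins, was at 4943 and 5379 TPM in early growth, 5657 and 4768 TPM in late growth and 5198 and 4963 TPM in resting, so that the 3 phases overlapped. Relative to the family it fell by 0.34 (standard error 0.06, adjusted p = 0.0060) and then rose by 0.36 (standard error 0.06, adjusted p = 0.0044, and 0.055 without resting replicate 1). RPS29, a zinc-binding protein of the small subunit, was at 2861 and 3010, 3296 and 2935, and 3089 and 3051 TPM, and relative to the family fell by 0.27 and rose by 0.37 (adjusted p = 0.0057 and 0.0013). RPS27 and RPS28 had the same signs, with relative values of −0.36 and 0.27, and of −0.34 and 0.44. The call of RPS27 was lost at the first step without late growth replicate 2 (adjusted p = 0.066), and at the step into rest without that library or either resting library (adjusted p between 0.14 and 0.18). That of RPS28 was lost at the first step without any 1 library other than late growth replicate 1 (adjusted p between 0.088 and 0.20), and at the step into rest without late growth replicate 2 or either resting library (adjusted p between 0.063 and 0.16). RPS28 was also the member with the widest gap between the resting libraries, at 2840 and 2433 TPM. RPS4X, a small subunit protein with copies on both sex chromosomes in human, was at 5034 and 5233, 5521 and 5154, and 3739 and 3911 TPM. Its growth phases overlapped in TPM, and relative to the family it fell by 0.30 at the first step (standard error 0.05, adjusted p = 0.0034).

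**Figure D3:**
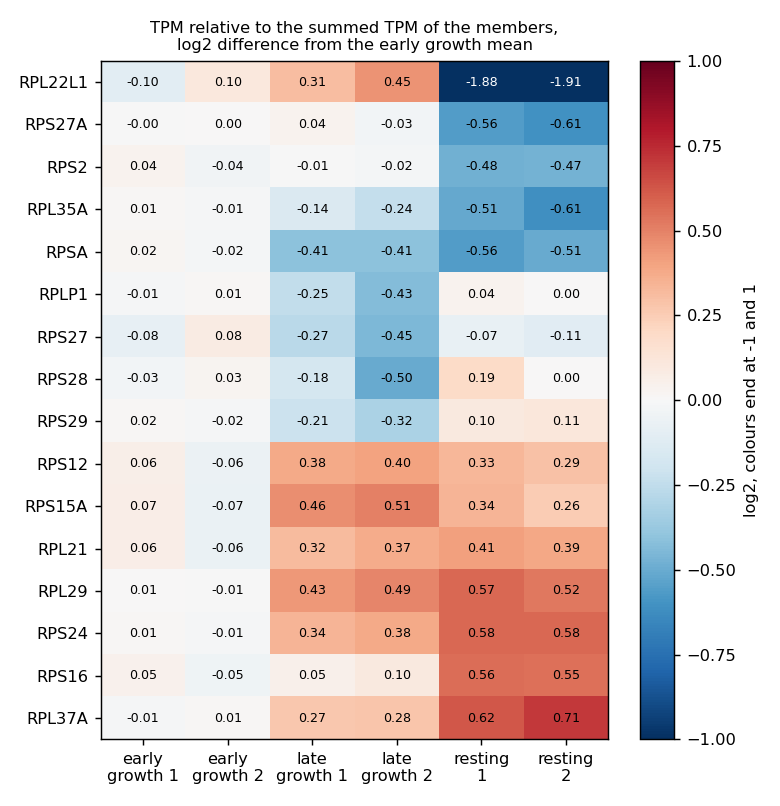
Each cell gives the log2 of a member's TPM relative to the summed TPM of the members, less the early growth mean of that member, for 16 members in the 6 libraries, and colours end at −1 and 1. RPL22L1 turns from red in late growth to deep blue in resting, while RPL37A, RPS16 and RPS24 are redder in resting than in early growth and RPSA and RPS27A are blue there.

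RPL22L1 was the member that changed most. RPL22 and RPL22L1 are paralogs that can take the same place on the large subunit, and in mouse RPL22 represses RPL22L1. RPL22L1 was at 512 and 635 TPM in early growth, 923 and 973 TPM in late growth and 152 and 146 TPM in the resting phase. The 3 phases did not overlap. It rose by 0.73 on the log2 scale (standard error 0.11, adjusted p = 0.0049) and fell into rest by 2.66 (standard error 0.11, adjusted p = 1.9e-05), so that it ended 1.93 below early growth (adjusted p = 7.7e-05). Against the family the changes were 0.38 (standard error 0.09, adjusted p = 0.017) and −2.27 (standard error 0.09, adjusted p = 1.4e-05), and the first was not called without early growth replicate 1 (adjusted p = 0.056), late growth replicate 1 (0.051) or late growth replicate 2 (0.10). RPL22 was at 2226 and 2374, 2450 and 2370, and 1983 and 1957 TPM, with log2 fold changes of 0.07 (standard error 0.05, adjusted p = 0.35) and −0.29 (standard error 0.05, adjusted p = 0.0046). As a share of the summed TPM of the pair, RPL22L1 made up 18.7 and 21.1% in early growth, then 27.4 and 29.1% in late growth and 7.14 and 6.95% in resting. Of its neighbours in the RefSeq table, LOC107054122 is listed at 0 TPM in all libraries. The other is EIF5A2, a form of the elongation factor eIF5A, which was at 172 and 167, 218 and 250, and 99.9 and 100.4 TPM, with log2 fold changes of 0.46 (adjusted p = 0.012) and −1.21 (adjusted p = 1.6e-04).

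RPS27L, a form of RPS27 that p53 induces in human cells, stood at a level far below its paralog and was the member called lower from early to late growth. It was at 66.3 and 81.8 TPM in early growth, 53.02 and 49.8 TPM in late growth and 48.2 and 49.1 TPM in resting, against a mean of 2782 TPM for RPS27 over the 6 libraries. Both early growth libraries were above all others. It fell from early to late growth by 0.51 (standard error 0.13, adjusted p = 0.028) and was not called into rest (−0.08, adjusted p = 0.65). This fall was not called with median-of-ratios scaling (−0.18, adjusted p = 0.44), with quantile normalization (−0.21, adjusted p = 0.29), or without any 1 library other than early growth replicate 1 (adjusted p between 0.054 and 0.15). Against the family it was −0.86 (standard error 0.13, adjusted p = 0.0027). RPS27L made up 2.47 and 2.54% of the summed TPM of the pair in early growth, then 1.68 and 1.87% in late growth and 1.77 and 1.89% in resting.

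Values of RPL14 differed far more within a growth phase than between the resting libraries, and no direction is given for it. RPL14, of the large subunit, was at 39.8 and 2767 TPM in early growth, 320 and 3193 TPM in late growth and 3006 and 2897 TPM in resting. Of its 2 neighbours in the RefSeq table, ENTPD3 was at 161 and 9.74, 227 and 34.4, and 1.57 and 4.21 TPM, and so was high in the libraries where RPL14 was low. The other, FAM198A, was at 0.753 and 1.64, 0.10004 and 0.0558, and 1.22 and 1.07 TPM, too low to be tested. RPL14 was not called at any step (log2 fold changes of 1.59, 1.54 and 3.14, adjusted p = 0.58, 0.56 and 0.24), except against early growth without early growth replicate 2 (6.18, adjusted p = 0.023). How reads of RPL14 and ENTPD3 were assigned was not tested.

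**Figure D4:**
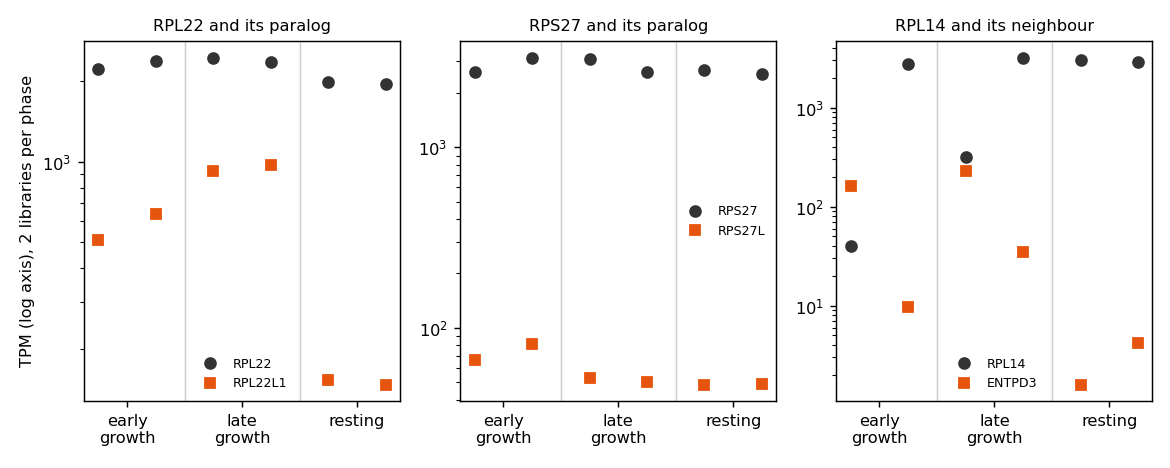
TPM on a log axis in the 2 libraries of each phase for RPL22 and RPL22L1 (left), RPS27 and RPS27L (middle) and RPL14 with its neighbour ENTPD3 (right). RPL22L1 drops to 152 and 146 TPM in resting while RPL22 stays at 1983 and 1957 TPM, and in both growth phases RPL14 and ENTPD3 lie at opposite ends within the pair of libraries.

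The stalk proteins differed among themselves. The stalk of the large subunit, made of RPLP0 and copies of RPLP1 and RPLP2, recruits the elongation factors. RPLP0 was at 2754 and 2751 TPM in early growth, 3645 and 3232 TPM in late growth and 2678 and 2690 TPM in resting. It rose by 0.32 (standard error 0.06, adjusted p = 0.013) and fell by 0.35 (standard error 0.06, adjusted p = 0.0051), calls that were lost without either resting library (adjusted p between 0.051 and 0.054) and, for the rise, without early growth replicate 2 (adjusted p = 0.053). With the erythroid and smooth muscle genes removed the fall was −0.16 (adjusted p = 0.078). RPLP2 was at 3181 and 3241, 4443 and 4141, and 3000 and 2867 TPM, a rise of 0.42 (adjusted p = 0.0028) and a fall of 0.55 (adjusted p = 4.1e-04). RPLP1, in contrast, was not called at either step in TPM (0.01 and −0.03). With quantile normalization RPLP0 turned to −0.02 and RPLP1 to −0.31 at the first step.

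RPL5 and RPL11, which bind the 5S ribosomal RNA and as a complex also bind MDM2, the ubiquitin ligase of p53, moved alike. RPL5 was at 2986 and 3033 TPM in early growth, 4647 and 4603 TPM in late growth and 3659 and 3723 TPM in resting. It rose by 0.62 (standard error 0.04, adjusted p = 3.0e-04) and fell by 0.33 (standard error 0.04, adjusted p = 0.0010). RPL11 was at 2182 and 2282, 3438 and 3280, and 2663 and 2748 TPM, a rise of 0.59 and a fall of 0.31 (adjusted p = 7.8e-04 and 0.0031). For both genes every resting library lay between the other phases. RPL11 was not called at the step into rest with the erythroid and smooth muscle genes removed (−0.12, adjusted p = 0.091), with quantile normalization (−0.13, adjusted p = 0.080) or with median-of-ratios scaling (−0.31, adjusted p = 0.058).

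RPS6, RPL21 and RPL24 were called higher and then lower in TPM, while RPL38 was called in TPM at the step into rest but not at the first. RPS6 rose by 0.27 and fell by 0.43 (adjusted p = 0.0066 and 5.8e-04), and its rise turned to −0.13 with quantile normalization. RPL21, mutated in a human hereditary hair loss, was at 3561 and 3504, 5736 and 5717, and 4619 and 4440 TPM, a rise of 0.70 (standard error 0.04, adjusted p = 2.4e-04) and a fall of 0.34 (adjusted p = 0.0010). RPL24, the gene of the mouse Belly spot and tail mutant, was at 2490 and 2550, 3605 and 3611, and 2614 and 2721 TPM, a rise of 0.52 (adjusted p = 7.8e-04) and a fall of 0.44 (adjusted p = 4.8e-04). The late growth libraries of both genes were above all others. Loss of RPL38 alters the axial skeleton of the mouse Tail short mutant. RPL38 was at 2216 and 2675, 2425 and 2506, and 1786 and 1808 TPM. It changed by 0.02 at the first step (adjusted p = 0.90), where its value against the family was −0.33 (adjusted p = 0.010). From early growth to resting its log2 fold change in TPM was −0.44 (adjusted p = 0.0085). Into rest it fell by 0.46 in TPM (adjusted p = 0.0074). That fall was not called without late growth replicate 2 (adjusted p = 0.059) or either resting library (0.070 and 0.064), nor with the erythroid and smooth muscle genes removed (−0.26, adjusted p = 0.052).

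RPS19 and RPS20 are both known from mouse mutants with dark skin, and RPS19 also from human anaemia. RPS19 was at 3199 and 3405 TPM in early growth, 5464 and 4767 TPM in late growth and 4398 and 4273 TPM in resting. It rose by 0.63 (standard error 0.07, adjusted p = 0.0024), and its fall of 0.24 (adjusted p = 0.040) was lost in the fits without any 1 library except late growth replicate 2 (adjusted p between 0.059 and 0.21). RPS20 was at 3936 and 4231, 5415 and 5202, and 4398 and 4302 TPM, a rise of 0.38 (adjusted p = 0.0036) and a fall of 0.29 (adjusted p = 0.0050, and 0.061 without resting replicate 2). With the erythroid and smooth muscle genes removed that fall was −0.09 (adjusted p = 0.17), and with quantile normalization the rise was −0.026. Relative to the family RPS19 rose by 0.28 at the first step (adjusted p = 0.0062) and by 0.16 into rest (adjusted p = 0.047), the latter lost without any 1 library other than late growth replicate 1 (adjusted p between 0.073 and 0.20). RPS14 is deleted in the human 5q- syndrome. In late growth and resting it was the lowest of the 68 members with a mean above 1000 TPM other than RPL14. It rose by 0.28 and fell by 0.28 (adjusted p = 0.010 and 0.0055), and the rise was not called without late growth replicate 1. Its fall was −0.09 (adjusted p = 0.19) with the erythroid and smooth muscle genes removed.

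Other genes with TOP mRNAs had medians of the same sign as the ribosomal proteins at both steps. This and the other lists were written down with earlier results of these libraries known, and none was tested as a set. Over all tested genes 5.24% were called higher and 28.4% lower at the first step (median −0.31), and 24.7% higher and 23.1% lower into rest (median 0.02). With median-of-ratios scaling 1675 of 13063 were higher and 1994 lower at the first step, and with quantile normalization 1611 and 1775. With the erythroid and smooth muscle genes removed 3871 of 13024 were higher and 2340 lower into rest. Of 25 other TOP genes 13 rose and 1 fell from early to late growth, with a median of 0.23, and 2 rose and 16 fell into rest, with a median of −0.28. Under median-of-ratios scaling, quantile normalization and removal of erythroid and smooth muscle genes the first median was 0.56, 0.12 and 0.23 and the other −0.28, −0.22 and −0.09, and with that removal 6 rose and 10 fell into rest. EIF3H, a subunit of the initiation factor eIF3, was at 489.7 and 449 TPM in early growth, 986 and 988.5 TPM in late growth and 949.8 and 975 TPM in resting, a rise of 1.07 (adjusted p = 2.2e-04) with no fall after it (−0.04, adjusted p = 0.65). NAP1L1, a histone chaperone, rose from 408 and 387 TPM to 725 and 789 TPM and fell to 169 and 221 TPM, by 0.93 and then 1.96 (adjusted p = 0.0042 and 1.1e-04). EEF1D, a subunit of the exchange factor of eEF1A, rose by 0.64 (adjusted p = 7.5e-04), and NACA, of the nascent chain complex, and EEF1G fell into rest by 1.06 and 0.87 (adjusted p = 4.3e-04 and 0.0024). Of 50 translation factors 18 rose and 6 fell at the first step (median 0.04) and 8 rose and 29 fell into rest (median −0.38). Median-of-ratios scaling gave 25 higher and 1 lower at the first step (median 0.36), and removal of the erythroid and smooth muscle genes gave 12 higher and 19 lower into rest. EEF1A2, the eEF1A form of muscle and neurons, is listed at 0 TPM in the 4 growth libraries and at 101 and 108 TPM in resting. Which cells these transcripts came from was not tested.

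Among the assembly factors of the ribosome far more transcripts were called lower than higher into rest. Of 109 tested 2 rose and 37 fell from early to late growth (28.4% of all tested genes were lower), where their median of −0.29 was close to the −0.31 of all tested genes. Into rest 3 rose and 73 fell (24.7% and 23.1% of all tested genes), with a median of −0.63 against 0.02. With the erythroid and smooth muscle genes removed 4 rose and 54 fell, and with all markers of other cells removed 4 and 53. The first median depends on the scale, with 0.03 (16 higher, 11 lower) under median-of-ratios scaling and −0.01 (10 higher, 13 lower) under quantile normalization, while the other stayed between −0.63 and −0.43 under the 4 scalings tried. RRP9, a protein of the U3 particle that cleaves the precursor of the small subunit RNA, was at 162 and 198 TPM in early growth, 63.4 and 64.7 TPM in late growth and 50.3 and 43.3 TPM in resting, a fall of 1.47 at the first step (standard error 0.13, adjusted p = 0.0010). RRP8, a methyltransferase of large subunit RNA, and NOC3L fell by 1.52 and 1.37 at that step (adjusted p = 0.013 and 0.0068). NHP2, of the particles that make pseudouridine, was at 165 and 213, 160.5 and 137, and 61.6 and 37.8 TPM, a fall into rest of 1.60 (standard error 0.25, adjusted p = 0.0029). NAT10, an acetyltransferase of ribosomal RNA, and NLE1, a factor of large subunit maturation, fell into rest by 1.62 and 1.65 (adjusted p = 0.010 and 0.015). The 2 that rose at the first step were NPM1, a nucleolar chaperone whose mRNA also counts among the TOP mRNAs, and SBDS, and those that rose into rest were SBDS, WDR74 and ZNF593, all named after their values were seen.

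RNA polymerases I and III transcribe the ribosomal RNAs. Of 17 genes of the polymerase I machinery 0 rose and 5 fell at the first step, 1 rose and 9 fell into rest, and 0 rose and 13 fell between early growth and resting. The shares of all tested genes called lower at these steps were 28.4%, 23.1% and 34%, so that the share of the first step was near that of all genes. Between early growth and resting the number lower was 8 with median-of-ratios scaling, 10 with quantile normalization and 9 with the erythroid and smooth muscle genes removed. With that removal 1 rose and 4 fell into rest, and with median-of-ratios scaling 1 rose and 1 fell at the first step. POLR1A, the largest subunit of the enzyme, was at 39.5 and 35.8, 27.4 and 30.3, and 15.4 and 15.2 TPM, a fall into rest of 0.87 (standard error 0.14, adjusted p = 0.0033), and POLR1D fell by 0.89 (adjusted p = 4.7e-04). TAF1D, of the promoter factor SL1, fell by 1.26 (adjusted p = 8.8e-04) and was then 0.54 higher in resting (adjusted p = 0.0082). Of 17 genes of polymerase III and its factors 3 rose and 5 fell into rest, where 24.7% and 23.1% of all tested genes did. MAF1, the repressor of polymerase III, was at 67.2 and 65.8 TPM in early growth, 48.7 and 51.1 TPM in late growth and 163 and 177 TPM in resting, a rise of 1.75 (standard error 0.09, adjusted p = 4.5e-05), and POLR3A fell by 1.14 (adjusted p = 0.014). In both resting libraries MAF1 stood above all growth libraries.

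Mitochondrial ribosomal proteins build the separate ribosome of the organelle. Of 74 tested 1 rose and 24 fell from early to late growth (median −0.30), and 1 rose and 32 fell into rest (median −0.42). The first fall was near that of all tested genes, of which 28.4% were lower with a median of −0.31, while into rest 23.1% were lower with a median of 0.02. With the erythroid and smooth muscle genes removed 20 fell into rest, and with all markers of other cells removed 19. With median-of-ratios scaling 3 rose and 1 fell at the first step (median 0.02), with quantile normalization 1 rose and 3 fell (median −0.04), and the median into rest stayed between −0.42 and −0.23 under the 4 scalings tried. MRPL37 was at 88.7 and 87.2, 71.0 and 65.1, and 32.5 and 29.6 TPM, a fall into rest of 1.11 (standard error 0.11, adjusted p = 4.4e-04). MRPS6 was the exception that rose into rest, from 96.9 and 97.9 TPM to 214 and 203 TPM, by 1.09 (adjusted p = 1.8e-04). Cell division genes, for comparison, fell in 25 of 25 cases into rest with a median of −4.00, far beyond the −0.41 of the ribosomal proteins.

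**Figure D5:**
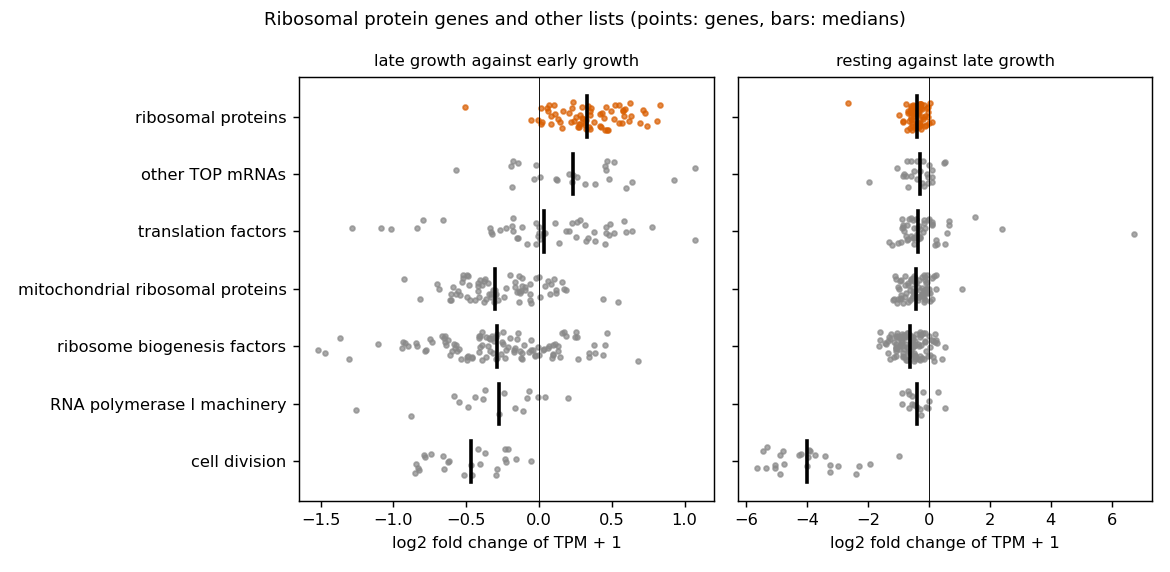
Points give the log2 fold change of TPM + 1 of each tested gene for 70 ribosomal protein genes (RPL14 not among them) and 6 other lists at the step from early to late growth (left) and from late growth to resting (right), with black bars at the medians. On the left the ribosomal proteins (0.33, or −0.022 for all 72 with quantile normalization), the other TOP mRNAs (0.23) and the translation factors (0.04) have medians above 0, the other lists have medians below 0 that turn with median-of-ratios scaling except for cell division, and on the right all 7 medians are below 0.

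Known controls of ribosomal protein genes include mTORC1 and MYC. Of 22 genes of mTORC1 and TOP mRNA control 3 rose and 5 fell at the first step and 2 rose and 5 fell into rest. All tested genes were called higher and lower in 5.24% and 28.4% of cases at the first step and in 24.7% and 23.1% into rest, so the share lower into rest was near that of all genes. The medians of this list, −0.14 and −0.12, turned with median-of-ratios scaling (0.17) at the first step and with removal of the erythroid and smooth muscle genes (0.07) into rest. RPS6KB2, an S6 kinase, was at 67.3 and 60.5, 30.8 and 23.2, and 49.0 and 55.6 TPM, a fall of 1.22 and a rise of 0.94 (adjusted p = 0.0038 and 0.0051), opposite in sign to the ribosomal proteins at both steps. TIA1, an RNA-binding protein that holds TOP mRNAs back in stress, fell by 1.44 at the first step (adjusted p = 0.0072), and SSB, the La protein, fell by 1.48 into rest (adjusted p = 1.3e-04). Of 12 genes of the MYC network 2 rose and 1 fell at the first step. Into rest the share lower was again near that of all genes, with 0 that rose and 3 that fell. These were MYCL (−1.49, adjusted p = 0.0020), MXD3 (−1.30, adjusted p = 0.0070) and MYC itself (−1.10, adjusted p = 0.0013), which was at 158 and 133 TPM in early growth, 112 and 119 TPM in late growth and 59.2 and 47.9 TPM in resting. MYCN, another activator of ribosomal protein and assembly genes, rose by 1.37 at the first step (adjusted p = 0.027).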

How the data were processed

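Papilla ectoderm of chicken feather follicles was profiled in 3 phases with 2 libraries each. The deposited values are TPM that the authors computed with StringTie at default settings on GRCg6a. For the aligner nothing is given in the sources used here. TPM keep no read depth, so it is unknown, and the difference between libraries of 1 phase is the only measure of precision. Every library column of the table was used as deposited.

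Values were taken as log2(TPM + 1), on which fold changes of low genes are understated. The 13063 genes with a mean above 1 TPM were tested with limma 3.58.1 (R 4.3.3, variance trend) in 1 fit of all phases (prior degrees of freedom 3.01, and 3.31 after scaling to the members' sum). All adjusted p values come from limma with Benjamini-Hochberg over the tested genes, at a threshold of 0.05. The read count test of the paper's methods was not run, as TPM are not counts.

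The members and lists were chosen with earlier results of these data known. Named members are the 5 of highest and of lowest mean, up to 4 called rises and falls per comparison on each scale, paralogs, members at 0 TPM, the stalk and 5S partners, RPS6, RPSA, RPS27A and those with known phenotypes. Of each other list up to 3 called genes per consecutive step were named. Gene neighbours and synonyms come from RefSeq (GRCg7b, names only), and 68 members matched a symbol there. Short reads of near-identical copies may be shared between genes. Alternatives were other pseudocounts, filters, scalings, thresholds, robust moderation, 2 phases alone, the replicate number as a block and leaving out each library. Leaving out RPL14 with 1 other member was added after seeing the data, and 2 members are not reported here by name.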

Additional observations from a re-analysis of the deposited data

How the results depend on the processing

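Counts of called members are given as higher and lower. Without a filter on low values they were 9 and 0 from early to late growth, 0 and 20 into rest, and 2 and 6 between early growth and resting, and the cause was not tested. Median-of-ratios scaling gave 60 and 0 at the first step, 0 and 42 into rest, and 26 and 1 between early growth and resting. Quantile normalization gave 15 and 12, 3 and 55 into rest, and 6 and 43. Removing erythroid and smooth muscle genes, or all markers of other cells, from the total gave 3 and 39 into rest. Between early growth and resting it gave 31 and 12. It moved the mean share of the resting libraries from 23.1% to 26.3% or 26.5%. Rescaling to the total without the members, and fitting only the 2 phases compared, left 0 lower at the first step. With the added demand of a change above 1 on the log2 scale the counts were 0 and 0, 0 and 1, and 0 and 1, and with one above 2 and an adjusted p under 0.01 they were 0 and 0, 0 and 1, and 0 and 0. Leaving out each library gave 37 to 52 higher and 0 to 1 lower at the first step, 0 higher and 44 to 58 lower into rest, and 9 to 15 higher and 13 to 27 lower between early growth and resting. Relative to the members' sum these ranges were 12 to 16 and 10 to 16, 6 to 13 and 9 to 22, and 10 to 20 and 17 to 25.

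Directions of single members turned mainly with the scale. With quantile normalization the first step of RPL17 was −0.080, RPS6 −0.13, RPS27A −0.047, RPS2 −0.025, RPLP1 −0.31, RPS29 −0.27, RPS4X −0.31, RPLP0 −0.021, RPS20 −0.026 and the members' median −0.022, the step into rest of RPS29 was 0.21, and between early growth and resting RPS23 was −0.25, RPS12 −0.21 and RPS20 −0.23. With median-of-ratios scaling RPL17 was 0.046, RPS6 0.18 and RPS14 0.33 between early growth and resting. Without erythroid and smooth muscle genes RPL37A was 0.19 and RPS24 0.015 into rest, and RPS3A was 0.15, RPS6 0.031 and RPS14 0.18 between early growth and resting. Without all markers of other cells these were 0.20 and 0.024, and 0.15, 0.033 and 0.18. Relative to the members' sum no named member turned.

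Replicate numbers did not pair the libraries: deviations of same-numbered libraries correlated at −0.0289, 0.00830 and 0.0149. With the number as a block the counts were 49 and 1, 0 and 56, and 12 and 25, and relative to the members' sum 17 and 16, 10 and 19, and 21 and 24.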

Other observations

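Genes of the p53 pathway and of ribosome rescue were also counted. Of 10 tested p53 pathway genes 3 rose and 1 fell from early to late growth, and 4 rose and 0 fell into rest, with a median of 0.75 against 0.02 over all tested genes. Of all tested genes 5.24% were higher and 28.4% lower at the first step, and 24.7% higher and 23.1% lower into rest. At an adjusted p under 0.05 limma called BTG2, which slows cell proliferation, at both steps. It was at 64.1 and 61.4 TPM in early growth, 94.3 and 98.8 TPM in late growth and 383 and 405 TPM in resting, and its rise into rest was 2.02 (standard error 0.08, adjusted p = 1.6e-05). RRM2B, a ribonucleotide reductase subunit, and GADD45A, a stress gene, rose into rest by 1.16 and 1.11 (adjusted p = 0.0029 and 0.0017).

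Of 17 genes of ribosome rescue and quality control 4 rose and 4 fell at the first step, and 3 rose and 9 fell into rest, with a median of −0.51. Of all tested genes 5.24% rose and 28.4% fell at the first step. Into rest 24.7% rose and 23.1% fell, with a median of 0.02. At the first step median-of-ratios scaling gave 8 higher and 1 lower and quantile normalization 7 and 0. Over all 13063 tested genes these scalings gave 1675 and 1994, and 1611 and 1775. ABCE1, which splits ribosomes into subunits after termination, was at 176 and 154 TPM in early growth, 240.5 and 256 TPM in late growth and 100.2 and 99.5 TPM in resting, and fell into rest by 1.30 (standard error 0.09, adjusted p = 1.3e-04). OTUD6B, a deubiquitinase, was at 50.9 and 44.3, 73.4 and 79.0, and 24.4 and 23.0 TPM, with log2 fold changes of 0.67 and −1.64 (adjusted p = 0.0098 and 1.6e-04). Among ribosomal genes outside the symbol rule, RACK1, which sits on the small subunit, was at 3392 and 3406, 4187 and 3973, and 2690 and 2703 TPM, a rise of 0.26 and a fall of 0.60 (adjusted p = 0.0071 and 1.5e-04). FAU, which encodes a small subunit protein fused to a ubiquitin-like one, fell into rest by 0.23 (adjusted p = 0.0071).

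Genes in general use as references were not level either. Of 18 tested, 2 rose and 5 fell at the first step and 4 rose and 10 fell into rest, with medians of −0.09 and −0.51. Over all tested genes 5.24% were higher and 28.4% lower at the first step (median −0.31), and 24.7% and 23.1% into rest (median 0.02). The share lower at the first step and the share higher into rest were thus near those of all genes. At the first step median-of-ratios scaling gave 5 higher and 1 lower, with a median of 0.23. The largest changes into rest were those of PGK1 and TFRC, which both fell by 1.94 (adjusted p = 1.1e-05 and 2.0e-04).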
